A study of Mus musculus with 8 samples.

Results

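The transcripts described are those of 9 genes of the intrinsic apoptosis pathway, namely the anti-apoptotic Bcl2, Bcl2l1, Bcl2l10 and Mcl1, the effectors Bax and Bak1, the BH3-only gene Bbc3 and the caspases Casp2 and Casp9. They were looked up by symbol in a table of ribosome-bound mRNA and a table of total mRNA from mouse oocytes. Of these 9 genes, 4 had a row in both tables (Bcl2l10, Bcl2l1, Mcl1 and Casp2), 1 had a row in the total mRNA table alone (Casp9), and 4 had a row in neither (Bcl2, Bax, Bak1 and Bbc3), out of 10891 genes listed in either table.

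Ovulated oocytes at metaphase II (MII) came from superovulated C57BL/6 females of the genotype RiboTagF/F;Zp3-Cre, which were either young (1 month) or old (12 to 15 months, retired breeders). In these mice Cre is driven by the oocyte promoter Zp3, so that an HA-tagged ribosomal protein is made in oocytes of both ages. Each age was represented by 2 pools of 200 oocytes. From each pool, 10% of the lysate gave an input library (total mRNA) and the remainder was immunoprecipitated with an HA antibody (HA library, ribosome-bound mRNA). Both ages were primed with 5 IU PMSG, given 10 IU hCG 48 h after it and sampled 13 h after the hCG. The old females were also former breeders, so that age and breeding history cannot be told apart, and the number of mice per pool is not given in the sources used here.

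Values are CPM, in which the reads on a gene are scaled to the size of its library. They were adjusted by the authors for library composition (TMM), separately for the 4 HA and the 4 input libraries. Between 37817382 and 60052814 reads lay on the listed genes of a library. A gene was listed if it had at least 1 CPM in at least 2 libraries of its table. Of the 8898 genes listed in HA, 257 and 366 had 0 reads in the old libraries, against 10 and 77 in the young ones. The median absolute log2 difference between replicates was 1.29 in old and 0.77 in young HA. The paper likewise reports more noise in its old immunoprecipitated data. All 10 oocyte markers that were checked had rows in both tables. Of 14 cumulus and granulosa cell markers, 4 were listed in HA, with summed levels of 88.8 to 144 CPM in old and 199 to 207 CPM in young libraries. In input, 9 were listed, with sums of 154 to 315 CPM in old and 198 to 282 CPM in young libraries. No blood cell marker of 6 was listed in either table, and of 5 oviduct epithelium markers only Epcam was, in input, where it stood at 57.6 CPM in old replicate 1 and at no more than 3.29 CPM elsewhere. In pooled cells, fewer oocytes with a transcript and less of it per oocyte cannot be told apart.

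BCL2 proteins decide whether the outer mitochondrial membrane stays intact. Anti-apoptotic members hold back the effectors Bax and Bak1, BH3-only proteins relieve that restraint, and cytochrome c that leaks from mitochondria lets Apaf1 activate the initiator caspase Casp9. Casp2 is an initiator caspase that is activated on a different platform, the PIDDosome, and has been studied in oocyte loss. Fully grown oocytes do not transcribe, so that what an MII oocyte makes is set by stored mRNA and by how much of it is loaded on ribosomes.

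Bcl2l10 was by far the most abundant of the listed anti-apoptotic transcripts in every library, and its total mRNA differed between old and young oocytes by less than the spread of the pools. As deposited, its ribosome-bound mRNA was at a higher CPM in each old pool than in either young pool, with a log2 difference that depended on how the libraries were scaled. Bcl2l1, the gene of BCL-XL, was almost without ribosome-bound reads in both old pools although its total mRNA was detected there. Casp2 mRNA was at a similar total level at both ages, and its ribosome-bound level as deposited was higher in both old pools, without passing the test. Mcl1 and Casp9 varied more between the 2 old pools than between ages.

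**Figure D1:**
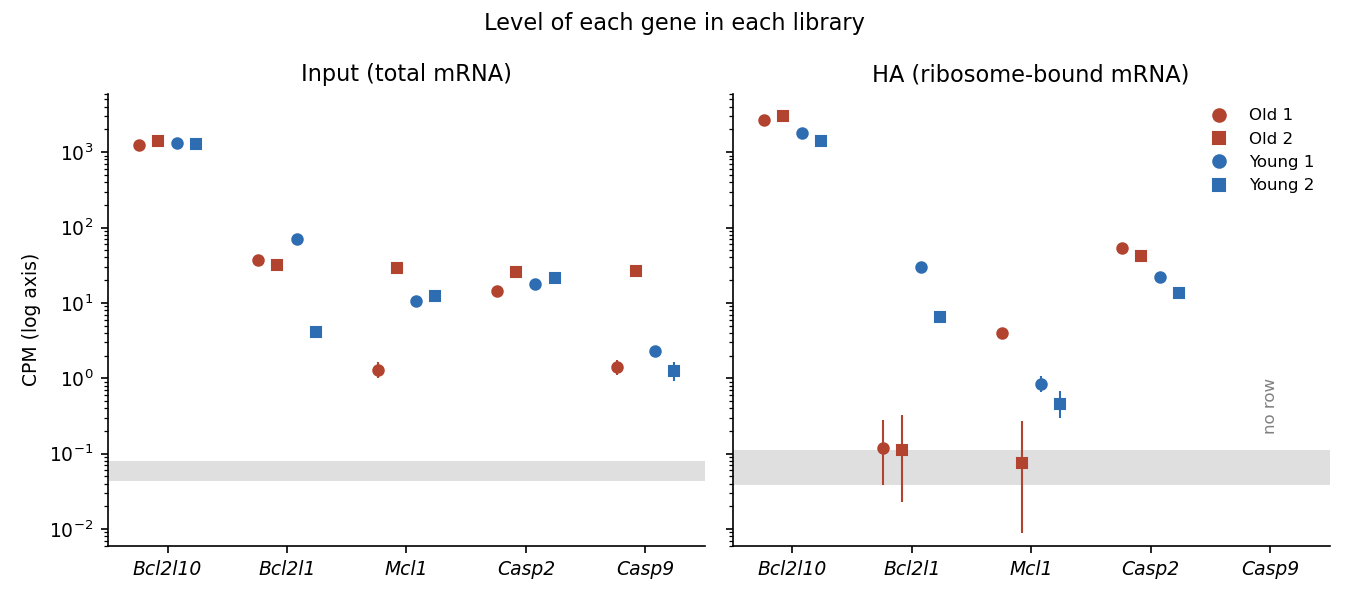
CPM of each of the 5 listed genes (log axis) in every input (left) and HA (right) library. Circles and squares are replicates 1 and 2 of old (red) and young (blue) oocytes, bars are exact 95% Poisson intervals of the read number (counting error only), and the grey band spans the value of 3 reads in the libraries of a panel. Bcl2l10 lies between 1250 and 3021 CPM in all 8 libraries, whereas Bcl2l1 in the 2 old HA libraries lies at 0.119 and 0.111 CPM, near the band.

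The anti-apoptotic gene Bcl2l10 (GRCm38 chr9:75347758-75351632, plus strand, overlapping no other annotated gene) is known for its expression in oocytes. Its input level was 1250 and 1410 CPM in the 2 old libraries and 1338 and 1281 CPM in the 2 young ones. The old values enclosed the young ones, and the log2 difference between old and young was 0.02 (SE 0.21, limma adjusted p = 0.992). Among the genes of the input table it ranked between 49 and 83 by CPM.

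To compare genes, CPM was divided by the length of merged exons. Reads were counted over whole genes, so gene span is an alternative length, given below where it changes the order. Per kilobase of merged exons, the mean Bcl2l10 level was 1090 ± 92.5 CPM per kb in old and 1074 ± 33.0 CPM per kb in young input (SD, n = 2). No other listed member exceeded a mean of 8.11 CPM per kb in input. Of the summed anti-apoptotic level per kb, Bcl2l10 made up 98.9% ± 0.355 in old input and 99.0% ± 0.866 in young input (SD, n = 2). In HA it made up 99.97% ± 0.0364 in old and 99.7% ± 0.226 in young libraries. These shares cover the 3 anti-apoptotic members that were listed.

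In HA, Bcl2l10 stood at 2696 and 3021 CPM in the old libraries and at 1804 and 1388 CPM in the young ones. As deposited, the lower old value was above the higher young value. The mean was 2859 ± 229 CPM in old and 1596 ± 294 CPM in young libraries (SD, n = 2), a log2 difference of 0.85 on the log2(CPM + 1) scale (SE 0.33, limma adjusted p = 0.321 over 8898 genes, with an unadjusted p under 0.05). The difference fell to 0.21 with all libraries scaled to the same sum (SE 0.28, limma adjusted p = 0.811) and to 0.16 after quantile normalization (SE 0.30, adjusted p = 0.909), and the groups then overlapped. With libraries scaled by the median log2 ratio it was 1.06 (SE 0.40, limma adjusted p = 0.305). Scaling to the same sum moved the median log2 difference of all HA genes from -0.14 to -0.68. Relative to that median, the difference of Bcl2l10 was 0.99 as deposited, 1.01 with the median ratio, 0.89 with the same sum and 0.21 with quantiles. With 1 library left out, the log2 difference as deposited ranged from 0.66 (without young replicate 2) to 1.04 (without young replicate 1). Such a fit holds 1 library of an age, so that its spread comes from the other age alone.

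A ratio to other transcripts of the same library does not change when the library is scaled by a single factor, although it does with quantile normalization. Relative to the geometric mean of the 10 oocyte markers, Bcl2l10 stood at 4.29 and 5.21 in the old HA libraries and at 3.32 and 2.65 in the young ones. In input the old libraries gave 2.16 and 2.63 and the young libraries 2.18 and 2.33. The old and young ratios did not overlap in HA and overlapped in input. The choice of reference mattered, and these ratios were added after the data were seen. Relative to Gdf9 alone, Bcl2l10 stood at 0.471 and 0.320 in old HA against 0.352 and 0.245 in young HA, with overlap. In input the ratio to Gdf9 was 0.415 and 0.432 for old against 0.362 and 0.347 for young libraries, without overlap. The ratio to Bmp15 was 1.34 and 0.953 in old HA against 0.763 and 0.540 in young HA. That to Dppa3 was 4.82 and 2.44 in old HA against 2.14 and 1.27 in young HA. Neither overlapped in HA. In input the ratio to Bmp15 was 0.620 and 0.700 for old against 0.605 and 0.506 for young libraries, without overlap. That to Dppa3 overlapped in input. Of the 10 markers themselves, Nlrp5, Gdf9, Oosp1 and Npm2 were also at higher deposited HA levels in each old than in either young library. Zp3 was at a lower HA level in each old than in either young library. Groups that did not overlap, in either direction, were found for 41.9% of all HA genes.

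**Figure D2:**
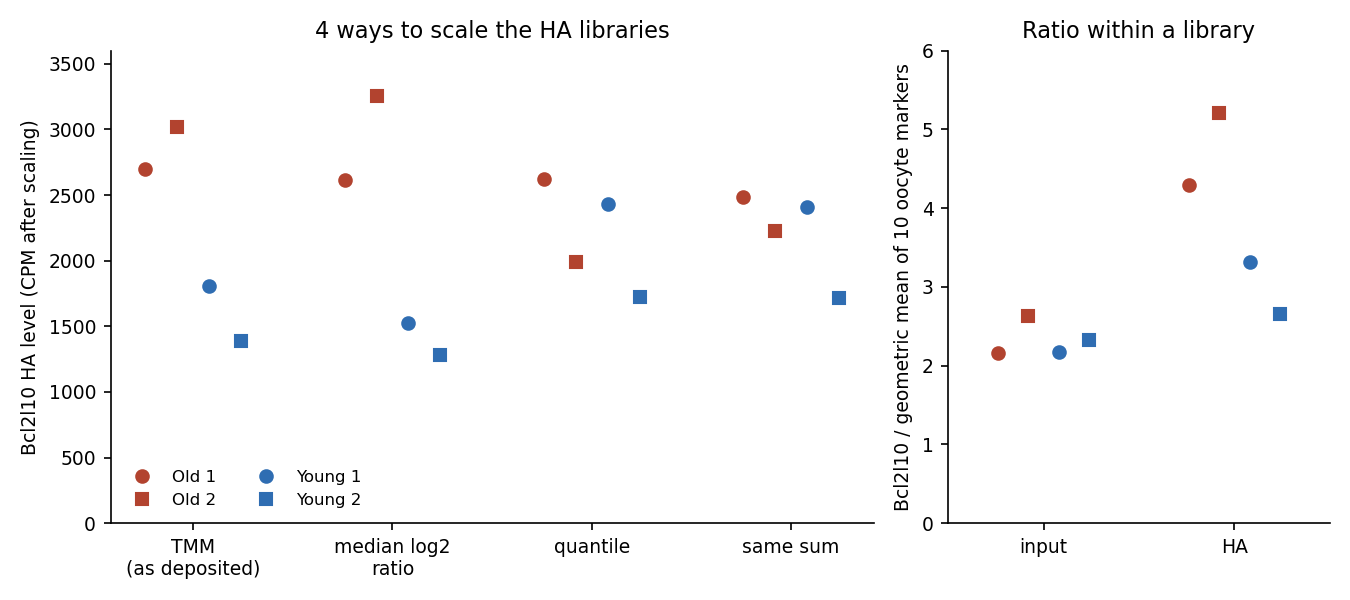
Left, HA level of Bcl2l10 (CPM, linear axis from 0) in the 2 old (red) and 2 young (blue) libraries under 4 scalings. Right, its ratio to the geometric mean of 10 oocyte markers in input and HA (no unit). Old and young points are apart with TMM and the median ratio (log2 differences 0.85 and 1.06) and overlap with quantiles and the same sum (0.16 and 0.21).

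The translation efficiency (TE) of a transcript was taken in each pool as HA CPM over input CPM. The 2 tables were normalized separately, so that a TE can be read against other genes of the pool but not as an absolute ratio. The TE of Bcl2l10 was 2.16 and 2.14 in the old pools and 1.35 and 1.08 in the young pools. The median gene had a TE of 0.687 and 0.572 in old pools and of 0.729 and 0.724 in young pools. Bcl2l10 thereby stood at the 81.8 and 78.8 percentile of genes in the old pools and at the 78.7 and 67.4 percentile in the young ones. The log2 TE difference between old and young was 0.83 (SE 0.68, limma adjusted p = 0.844 over 8537 genes). With the variance trend of limma set on the mean level of a gene, an alternative chosen after seeing the data, its SE was 0.33 and its adjusted p 0.739, with an unadjusted p under 0.05. The log2 TE difference also depended on the scaling. It was 0.27 with quantile normalization, 0.38 with the same sum and 1.02 with the median ratio.

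**Figure D3:**
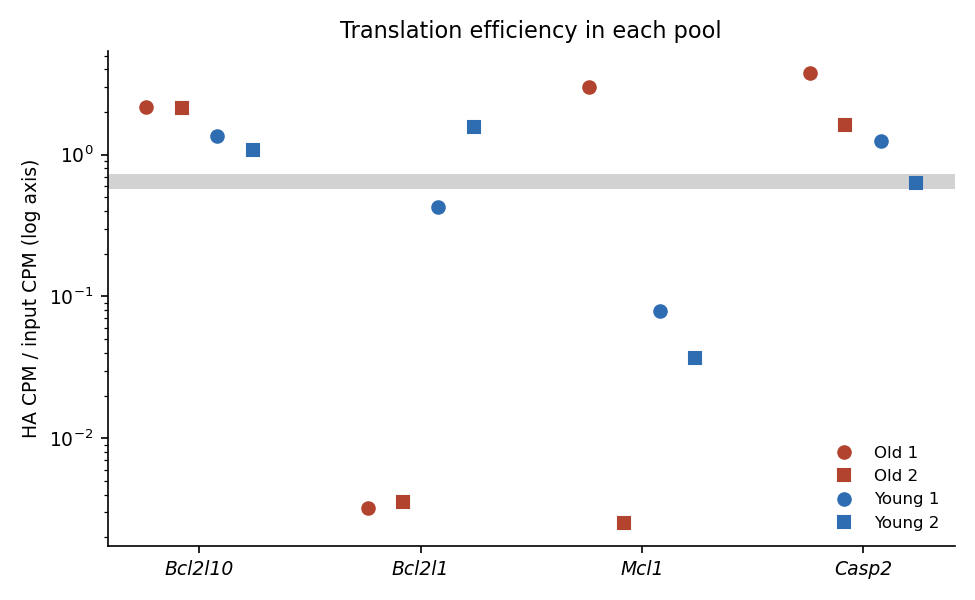
TE (HA CPM over input CPM, log axis) of the 4 genes listed in both tables, in each old (red) and young (blue) pool. The grey band spans the median TE of all genes in the 4 pools, 0.572 to 0.729. The old pools lie at 0.00322 and 0.00353 for Bcl2l1, and the old pools of Mcl1 lie at 3.02 and 0.00252.

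Bcl2l1 (GRCm38 chr2:152780668-152831728, minus strand, no overlapping gene) encodes BCL-XL, an inhibitor of the effectors Bax and Bak1. Its input level was 36.9 and 31.4 CPM in old and 70.3 and 4.07 CPM in young libraries. The young pair enclosed the old pair, and the difference between the 2 young input libraries exceeded that of 99.7% of genes. The log2 difference in input was 0.88 (SE 1.13, limma adjusted p = 0.940).

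In HA, Bcl2l1 had 5 and 3 reads in the old libraries, or 0.119 and 0.111 CPM, with exact 95% Poisson limits of 0.0386 to 0.277 and 0.0229 to 0.324 CPM. The young HA libraries held 2310 and 364 reads, or 29.9 and 6.42 CPM. Both old libraries lay far below both young ones, and the gene entered the HA table through the young libraries alone. Over pooled reads the young level was 172 times the old one, with a counting interval of 87.3 to 400 that covers no spread between pools. Against young replicate 2 alone it was 55.5 times the old level (27.8 to 129).

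The log2 difference of Bcl2l1 in HA was -3.76 (SE 1.22, limma adjusted p = 0.297, with an unadjusted p under 0.05). On the recovered reads, the likelihood ratio test of edgeR, which the Methods name, gave it an adjusted p of 0.0464, and 3.32% of HA genes passed 0.05. With DESeq2 its adjusted p was 9.5e-04, and 5.82% of tested genes passed, whereas with edgeR's quasi-likelihood test its adjusted p was 0.294 and 0.0% passed. With limma, quantile normalization gave -2.90 (SE 1.43, adjusted p = 0.771). The direction was the same under every scaling, but the limit on low values fixed it. The constant sign and the p-values above therefore support nothing. The summed cumulus and granulosa markers were also lower in the old HA libraries, by the values above, and their part in the result was not tested.

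The TE of Bcl2l1 was 0.00322 and 0.00353 in the old pools, at the 3.98 and 4.80 percentile of genes. In the young pools it was 0.424 and 1.58, at the 24.3 and 80.6 percentile. The log2 TE difference was -4.64 (SE 1.19, limma adjusted p = 0.724, with an unadjusted p under 0.05). Of 4243 genes with at least 20 CPM in both old input libraries and a row in both tables, 21 genes (0.495%) had no more than 10 reads in each old HA library, Bcl2l1 among them. Of 4414 genes chosen in the same way from the young libraries, 0 had so few reads in each young HA library. These limits were chosen after the values of Bcl2l1 were seen, and the comparison is a description without a test. The cut of 10 reads was stricter in young HA, where 1 read was 0.0129 and 0.0176 CPM, against 0.0238 and 0.0370 CPM in old HA. The 21 genes could have an HA row only through the young libraries, so the 2 counts are not alike.

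Mcl1 (GRCm38 chr3:95658788-95663176, plus strand, no overlapping gene) encodes a short-lived anti-apoptotic protein. Its input level was 1.30 and 29.3 CPM in old and 10.7 and 12.4 CPM in young libraries. The young libraries were alike and lay between the 2 old ones, which differed by more than 97.0% of genes did. In HA it stood at 3.94 and 0.0739 CPM in old and 0.840 and 0.458 CPM in young libraries, and the old value of 0.0739 CPM rested on 2 reads (exact 95% Poisson limits 0.00895 to 0.267 CPM).

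The log2 difference of Mcl1 was -0.58 in input (SE 1.30, limma adjusted p = 0.979) and 0.49 in HA (SE 0.81, adjusted p = 0.884). Its TE was 3.02 and 0.00252 in old pools, against 0.0789 and 0.0369 in young pools. The young TEs lay at the 1.76 and 3.74 percentile of genes. In old oocytes the same pool was low in input and high in HA, and the other the reverse, so that the 2 pools enclosed the young ones in both fractions. Leaving out old replicate 1 turned the sign of the HA difference (-0.61) and of the input difference (1.28).

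Among the caspases, Casp2 (GRCm38 chr6:42264985-42282508, plus strand, with the snoRNA gene Gm25108 inside it) was at 14.2 and 25.9 CPM in old and 17.9 and 21.7 CPM in young input. The groups overlapped, and the log2 difference was -0.04 (SE 0.74, limma adjusted p = 0.995). In HA it stood at 53.2 and 41.9 CPM in old and 22.3 and 13.7 CPM in young libraries. Both old values lay above both young ones, with means of 47.6 ± 8.00 and 18.0 ± 6.12 CPM (SD, n = 2). The log2 difference of 1.38 did not pass the test (SE 0.99, limma adjusted p = 0.650), and it was positive under every scaling, from 0.76 with the same sum to 1.58 with the median ratio.

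The TE of Casp2 was 3.75 and 1.62 in old pools, against 1.25 and 0.632 in young pools. These placed it at the 90.8 and 72.2 percentile of genes in old and at the 75.6 and 44.2 percentile in young pools. The log2 TE difference was 1.42 (SE 0.82, limma adjusted p = 0.779), and it ranged from 0.83 without old replicate 1 to 2.00 without old replicate 2. Relative to the 10 oocyte markers of the same HA library, Casp2 stood at 0.0848 and 0.0723 in old and at 0.0412 and 0.0262 in young libraries, without overlap.

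Casp9 (GRCm38 chr4:141793612-141815976, plus strand), the caspase activated by the Apaf1 apoptosome, was listed in input alone. It was at 1.40 and 26.6 CPM in old and 2.31 and 1.24 CPM in young libraries. Old replicate 2 stood apart from the other 3 libraries, and the log2 difference of 1.58 (SE 1.29, limma adjusted p = 0.892) became -0.18 without it. Of its exon bases, 19.5% lie within Cela2a or Ctrc on the opposite strand, and counting did not use strand.

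Of the 4 members listed in HA, 2 had an unadjusted limma p under 0.05 (Bcl2l10 higher and Bcl2l1 lower in old), beside 14.7% of all HA genes. The old and young groups did not overlap for 3 of the 4, beside 41.9% of all HA genes. In input, 0 of 5 members had an unadjusted limma p under 0.05, beside 6.18% of genes, and 0 of 5 had groups that did not overlap, beside 35.3%. For TE, 1 of 4 had one (Bcl2l1, lower), beside 6.56% of genes, and 3 of 4 did not overlap, beside 37.6%. After adjustment over all genes, 0 members passed 0.05 with limma in HA (0.0% of genes), input (0.0095%) or TE (0.0%). Bcl2l1 met the limit on low values in HA through its young libraries alone, so that its place in these counts supports nothing.

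The ratio of pro-apoptotic to anti-apoptotic transcripts could not be formed, because Bax, Bak1 and Bbc3 had no rows. In its place, Casp2 was set against Bcl2l10 per kb of merged exons. Casp2 amounted to 0.257% ± 0.0860 of Bcl2l10 in old input, 0.262% ± 0.0431 in young input, 0.291% ± 0.0717 in old HA and 0.192% ± 0.0308 in young HA (SD, n = 2). The old and young input values overlapped, and those in HA were apart by about their spread. Bcl2l1 amounted to 0.00107% ± 1.4e-04 of Bcl2l10 in old HA and 0.282% ± 0.224 in young HA. Over gene span in place of exons these values were 3.1e-04% and 0.0804%.

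The order of the remaining members was less stable. Per kb of merged exons, mean input levels in old oocytes were 7.45 ± 0.845 CPM for Bcl2l1, 4.48 ± 5.80 for Mcl1, 2.84 ± 1.18 for Casp2 and 2.69 ± 3.43 for Casp9 (SD, n = 2). In young oocytes they were 8.11 ± 10.2 for Bcl2l1, 3.38 ± 0.368 for Mcl1, 2.81 ± 0.377 for Casp2 and 0.341 ± 0.146 for Casp9. In old oocytes neighbours in this order differed by less than the larger of their SDs, and in young oocytes the SD of Bcl2l1 spanned Mcl1 and Casp2. The order of Bcl2l1, Mcl1 and Casp2 also changed from one input library to another. Over gene span the old input means were 3.49 CPM per kb for Mcl1, 1.14 for Casp2, 0.669 for Bcl2l1 and 0.626 for Casp9, so that Bcl2l1 came after Mcl1 and Casp2. In HA the per-kb mean was 6.74 ± 1.13 CPM in old and 2.55 ± 0.867 in young for Casp2, and 0.588 ± 0.801 in old and 0.190 ± 0.0790 in young for Mcl1.

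For the 4 members without rows, the annotation shows where counting could have lost reads. Bak1 (GRCm38 chr17:27019810-27029009, minus strand) lies with 100.0% of its exon bases inside loci of Ggnbp1 on the opposite strand, and counts were made over whole genes without strand. Of the exon bases of Bax, 52.0% lie within Gm45808, and of those of Bcl2, 15.9% lie within other genes. Bbc3, the gene of the p53 target PUMA, overlaps no other gene. Absence from a table says only that fewer than 2 libraries of it reached 1 CPM on unambiguous reads.

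The translation of stored oocyte mRNA is governed by 3′-UTR elements, above all the cytoplasmic polyadenylation element (CPE), which recruits CPEB1. The study asked how such elements relate to translation in old oocytes. CPEs spelled TTTTAT or TTTTAAT were therefore searched on the transcript strand in the longest annotated 3′-UTR of each member (GENCODE release 21 for GRCm38). The site nearest the 3′ end is shown for the 5 listed genes, with the CPE in capitals and 11 bases on each side. The genes differ in its distance to the end, and also in CPE spelling, CPE number and 3′-UTR length.
Bcl2l10: ccttaatacatTTTTAATaacttcaaatt
Casp9: tcttgtgttccTTTTATaagcaatattt
Casp2: tgttgttgtttTTTTATattttctacat
Bcl2l1: tcgagactagtTTTTATtccttgtgaag
Mcl1: tacgtttatacTTTTATtagtttgctcc
The site of Bcl2l10 (chr9:75351580-75351608, plus strand) lies nearest to the 3′ end of its transcript, at 42 bases counted from the first base of the CPE. That of Casp9 (chr4:141815890-141815917) lies at 76 bases, that of Casp2 (chr6:42282244-42282271) at 254, that of Bcl2l1 (chr2:152780940-152780967, minus strand) at 289 and that of Mcl1 (chr3:95662330-95662357) at 836 bases. Casp2 holds 3 CPEs, of which 2 abut, and the other 4 listed genes hold 1 each. Of the HA genes with an annotated 3′-UTR, 70.5% hold at least 1 CPE. Among those with a 3′-UTR of 0.8 to 1.2 times the 499 bases of Bcl2l10, 48.3% do. In the same window the share was 78.7% for Bcl2l1 (1477 bases) and 87.4% for Casp2 (2031 bases). It was 90.1% for Casp9 (2289 bases) and 90.2% for Mcl1 (2353 bases). Bax and Bbc3 hold 0 CPEs in these letters. A match is a description of the sequence and does not show that CPEB1 binds there.

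Other genes of the pathway were taken from 8 lists with 65 genes, of which 31 had a row in either table. In HA, 29 were listed, 2 of them with an unadjusted limma p under 0.05 and higher in old (background 4.28%) and 2 lower (10.5%). The 2 lower genes, Bid and Cradd, were listed through the young libraries alone, so that the limit on low values fixed their direction. In input, 0 of 29 were higher (2.71%) and 1 lower (3.48%). For TE, 1 of 27 was higher (2.33%) and 1 lower (4.23%). None of these genes had an adjusted p under 0.05 with the main limma fit in any of the 3 comparisons. Other tools passed some of them in HA and input, as given for each below. The median log2 difference in HA was 0.16 over the 29 genes and -0.14 over all genes.

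**Figure D4:**
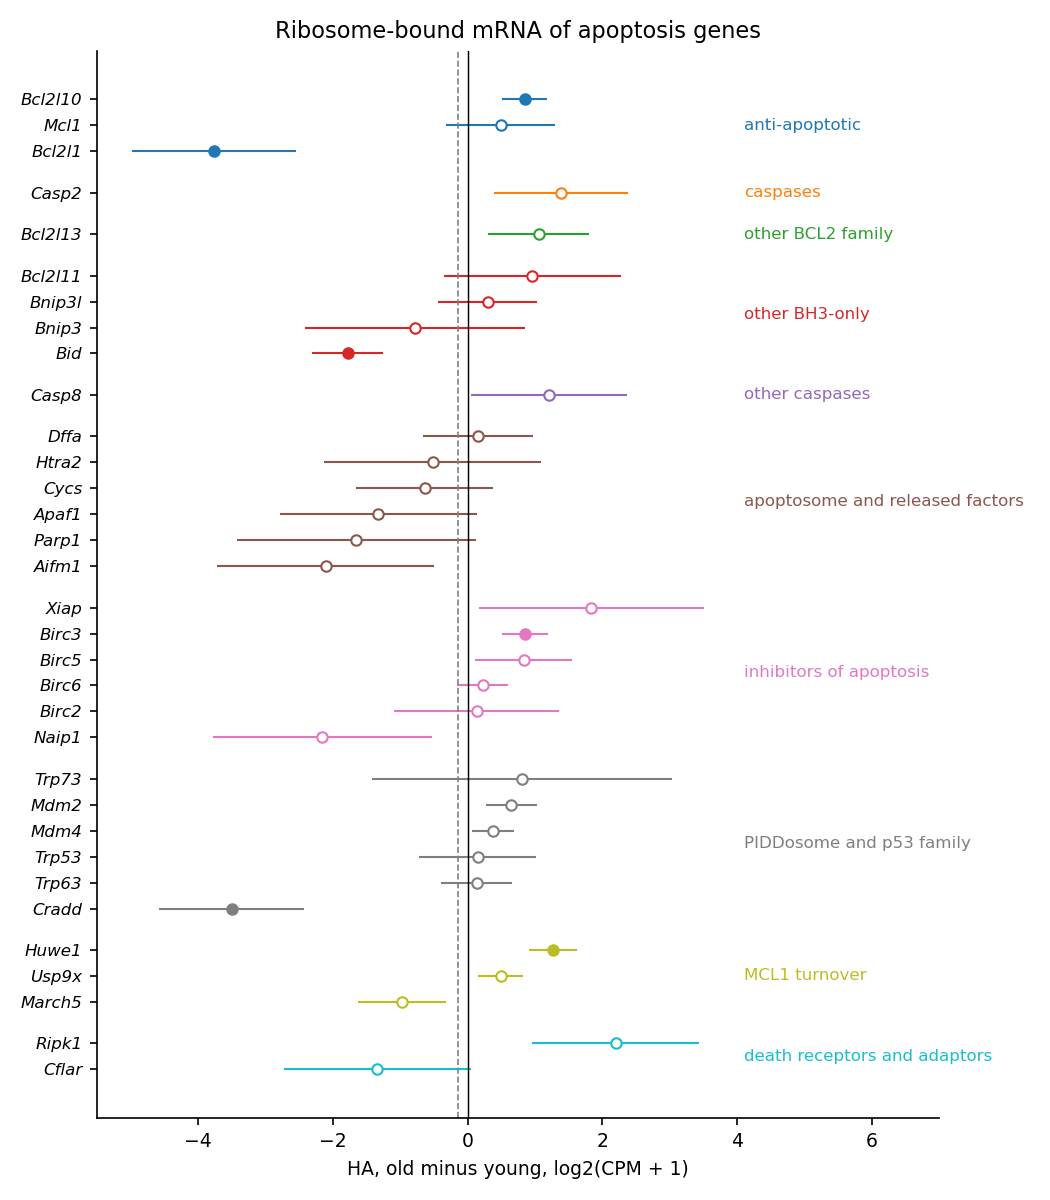
Log2 difference between old and young HA libraries, on the log2(CPM + 1) scale as deposited, for the members and the other listed genes of the pathway, grouped by role. Points are limma estimates with their SE, filled where the unadjusted p is under 0.05 (Bcl2l10, Bcl2l1, Bid, Birc3, Cradd and Huwe1), and the dashed line is the median of all genes at -0.14. Estimates of Bcl2l10, Birc3 and Huwe1 shrink with quantile normalization, to 0.16, 0.13 and 0.54.

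Among BH3-only genes, Bid, whose product is cleaved by caspase 8, had 0 reads in both old HA libraries and 3.11 and 1.87 CPM in the young ones, and it was not listed in input. Against a floor of 3 reads per library, the young mean was at least 27.4-fold higher (adjusted p = 0.297 with limma, 0.0462 with edgeR's likelihood ratio test, 0.187 with DESeq2 and 0.294 with edgeR's quasi-likelihood test). It too entered the table through the young libraries alone.

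Bcl2l11, the gene of BIM, was at 7.04 and 8.75 CPM in old and 50.9 and 41.5 CPM in young input, without overlap (log2 difference -2.41, SE 0.72, adjusted p = 0.778 with limma, 0.131 with edgeR's likelihood ratio test, 0.805 with its quasi-likelihood test and 0.0282 with DESeq2, which passed 1.15% of input genes). In HA it stood at 12.9 and 48.9 CPM in old and 15.3 and 10.2 CPM in young libraries, with overlap. Its TE was 1.84 and 5.59 in old and 0.301 and 0.246 in young pools, a log2 difference of 3.37 (SE 0.90, limma adjusted p = 0.724). Bnip3l, the BH3-only gene with the highest HA level, was at 42.5 to 60.3 CPM in the 4 HA libraries.

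Birc3, an inhibitor of apoptosis of the cIAP type, was the list's most abundant HA transcript, at 1875 and 1569 CPM in old and 920 and 976 CPM in young libraries. Its HA difference of 0.86 (SE 0.34, limma adjusted p = 0.323) fell to 0.13 with quantiles and to 0.22 with the same sum. In input it was at 545 and 560 CPM in old and 625 and 805 CPM in young libraries, and this difference of -0.36 did not pass the test (SE 0.24, limma adjusted p = 0.843).

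Cradd, the adaptor that links Casp2 to the PIDDosome, was at 30.7 and 63.8 CPM in old and 23.6 and 21.5 CPM in young input, and at 0.143 and 0.148 CPM in old and 17.3 and 8.21 CPM in young HA libraries. The HA groups did not overlap (log2 difference -3.50, SE 1.07, adjusted p = 0.297 with limma, 0.0550 with edgeR's likelihood ratio test, 0.294 with its quasi-likelihood test and 0.00709 with DESeq2), and Cradd was also among the 21 genes with few old HA reads. Like Bcl2l1 and Bid, it met the limit of the HA table through the young libraries alone. Its log2 TE difference was -4.45 (SE 1.08, limma adjusted p = 0.724). Pidd1, the scaffold of that complex, had no row.

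Huwe1, a ubiquitin ligase that marks MCL1 for degradation, was at 1483 and 1256 CPM in old and at 567 CPM in each young HA library. The log2 difference of 1.27 (SE 0.35, limma adjusted p = 0.297) was 0.54 with quantiles and 0.63 with the same sum. Usp9x, the deubiquitinase that opposes it and the most abundant of its list, stood at 3235 and 4497 CPM in old and 2559 and 2879 CPM in young HA libraries (limma adjusted p = 0.62). Mdm4, an inhibitor of p53, was the most abundant of all pathway genes in HA, at 4665 to 7247 CPM, and its difference of 0.38 did not pass the test either.

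In the remaining lists no gene had an unadjusted p under 0.05. Casp8, the highest of the other caspases, was at 198 and 24.1 CPM in old and 41.1 and 21.2 CPM in young HA libraries. Parp1, a caspase substrate, was at 0.30 to 30.5 CPM in HA. Apaf1, the apoptosome scaffold, was at 3.59 and 5.65 CPM in old and 9.49 and 17.3 CPM in young HA libraries, without overlap and with a log2 difference of -1.32 (SE 1.46). Bcl2l13 was the single other BCL2 family gene with a row, at 60.5 to 238 CPM in HA, and Ripk1 led the death receptor list, at 8.72 to 125 CPM.

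The genes whose level moved most like a member over the 8 libraries, with each table centred, were named for the 2 members with a mean of at least 10 CPM in both tables. For Bcl2l10 they were Mapre2 (Pearson's r = 0.992) and Fbxo8 (0.986), and for Casp2 they were Ube2k (0.989) and Serbp1 (0.971). The 8 libraries come from 4 pools, share the 2 normalizations, and were searched over 8536 genes, so these coefficients are descriptions.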

How the data were processed

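RNA-Seq libraries of 4 pools (HA and input) were analysed. Per the Methods, reads were trimmed (Trimmomatic 0.36), aligned with HISAT2 to GRCm38 and counted per gene with HTSeq (GENCODE release 11), without strand. The authors deposited these signal values as CPM after TMM normalization, separately for HA and input. The Methods state a limit of 10 CPM in at least 2 libraries, and the tables fit 1 CPM. Every value was a whole multiple of 1 read (100% within 0.01 reads), so reads were recovered. A floor of 3 reads equals 0.0388 to 0.111 CPM in HA, and intervals and floors cover counting error only, since the reads carry no molecular identifiers.

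Old and young were compared with limma (lmFit, eBayes with trend) on log2(CPM + 1), which understates changes of low genes, two-sided, with Benjamini-Hochberg adjustment over each table. TE was compared likewise. An exact permutation test of 2 pools against 2 cannot go below p = 0.333. P-values measure the spread between pools. The 9 members and the lists were chosen with earlier results of these data known. Text names all members and, from each other list, genes with an unadjusted p under 0.05 and that with the highest HA level. Apaf1 and Pidd1 were chosen after their values were seen. Exon lengths, overlaps and 3′-UTRs came from GENCODE release 21. Other pseudocounts (0.1 and 5), a 10 CPM limit, other scalings, eBayes without trend, a replicate block, leaving out each library, edgeR, DESeq2 and interaction models were run as alternatives, and the limma, edgeR and DESeq2 tests of age and the TE and interaction fits were tested on simulated data. Columns left out: 0. Software was limma 3.58.1, edgeR 4.0.16 and DESeq2 1.42.0 in R 4.3.3, and scipy 1.17.1, numpy 2.4.6, matplotlib 3.10.9 and pandas 2.3.3 in Python 3.11.15.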

Additional observations from a re-analysis of the deposited data

How the results depend on the processing

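With 2 pools per age, the spread between pools is poorly known, and depth limits the HA values of Bcl2l1 in both old libraries and of Mcl1 in old replicate 2 to 5, 3 and 2 reads. Members with an adjusted p under 0.05 in HA numbered 0 with limma and 1 (Bcl2l1) with edgeR's likelihood ratio test (3.32% of genes) and with DESeq2 (5.82%). Bcl2l1 met the limit of the HA table through its young libraries alone, so that this call supports nothing. Members with an unadjusted p under 0.05 in HA numbered 2 with the main fit, beside 14.7% of all genes. They numbered 1 with the 10 CPM limit (which drops Bcl2l1), the same sum, eBayes without trend, the likelihood ratio test and DESeq2. With quantiles they numbered 0. In input the count was 0 with the main fit (6.18% of genes) and 1 with DESeq2 (Casp9). For TE it was 1 with the main fit (6.56% of genes) and 0 with the 10 CPM limit. It was 2 with the interaction over 8 libraries and with the trend on the mean level (Bcl2l1 and Bcl2l10 both times). Shares of all genes by unadjusted p were taken for the main fit alone, so the other counts have no background beside them. The input differences of Bcl2l1 turned to -0.12 with both edgeR tests and -0.089 with DESeq2, and ranged from -1.03 (without young replicate 2) to 2.79 with 1 library left out. Those of Mcl1 turned to 0.41 with both edgeR tests and 0.43 with DESeq2, and ranged from -2.44 to 1.28 (without old replicate 1). Those of Casp2 turned to 0.018 with both edgeR tests and 0.037 with DESeq2, and ranged from -0.45 to 0.38 (positive without old replicate 1 or young replicate 2). Those of Bcl2l10 turned to -0.11 with quantiles and -0.17 with the same sum, and ranged from -0.067 to 0.107 (negative without old or young replicate 2). With 1 library left out, Mcl1 ranged from -0.61 to 1.59 in HA and from -1.89 to 4.03 in TE (negative without old replicate 1), and Casp9 from -0.18 (without old replicate 2) to 3.34 in input. The cause was not tested. Over gene span in place of exons, Casp2 came to 0.372% of Bcl2l10 in old HA, 0.246% in young HA and 0.335% in young input, and the Bcl2l10 share in old HA to 99.93%. Old and young pools with the same number share only that number, and their deviations were correlated at 0.0786 in HA, 0.0269 in input and 0.0108 in TE. The fit with the replicate block, as a pairing of the pools, gave 2 members in HA, 0 in input and 1 in TE under an unadjusted p of 0.05 and 0 after adjustment in each.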
